A study of Mus musculus with 9 samples.

Results

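Hypothalamic RNA of 3 AAV-Cre mice was compared with that of 3 AAV-GFP mice, 6 of the 9 libraries of the series. The AAV-Cre libraries compared are those titled Creobese, whose weight phenotype label reads Non-obese. Title and label contradict each other, so the group carries both names (Creobese/Non-obese), and it was placed by the label. The other 3 AAV-Cre libraries, titled Cre and labelled Obese (Cre/Obese), share the model fit and are set beside the members where the groups differ. All mice were males, labelled as strain C57/BL6, homozygous for the floxed allele Snord116tm1Uta/J. As adults they received AAV7 in the mediobasal hypothalamus, with Cre driven by the CAG promoter or GFP by the CMV promoter, and the brains were frozen 10 weeks later. The control mice therefore carry the same floxed allele and also received a virus, but with another promoter and another protein. The paper also gives a lower titer for the GFP virus than for the Cre virus. The CAG promoter is active in many cell types, and which cells expressed Cre was not measured here. A region was laser captured from a single section per mouse, placed by Cre immunostaining of neighbouring sections in AAV-Cre mice and matched to that region in AAV-GFP mice. The comparison asks which transcripts differ when Snord116 is deleted in the adult hypothalamus of mice given this weight label.

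Snord116 is a cluster of small nucleolar RNA genes, expressed from the paternal chromosome, within the region that is lost in Prader-Willi syndrome, a disorder of excessive appetite. In the mediobasal hypothalamus, arcuate neurons that make Pomc restrain feeding through melanocortin receptors, while neurons that make Agrp and Npy promote it. Leptin acts on both kinds of neuron through its receptor and the JAK-STAT pathway, and Socs3 limits that signal. Hormone precursors such as Pomc are cut to active peptides by the convertases Pcsk1 and Pcsk2.

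The values are signal, the reads of an entry divided by a library size that the authors scaled with edgeR's TMM method, on the scale of counts per 1e6. Tests covered 13506 of the 13588 entries, those that reached a signal of 1 in 3 or more of the 9 libraries. Libraries held between 3929672 and 5766994 reads on the listed entries, and the floor of 3 reads, which accounts for counting error alone, corresponded to a signal of 0.525 to 0.786. Replicate 2 of the Creobese/Non-obese mice was the shallowest library, with 3929672 reads, and 5.76% of its entries were at 0 reads, against 2.24% and 2.16% in the other libraries of its group and between 1.05% and 2.75% in AAV-GFP mice. The 2.75% belonged to AAV-GFP replicate 1, which had 4013871 reads. Correlations of log2(signal + 1) between libraries were 0.862 to 0.905 among Creobese/Non-obese mice, 0.883 to 0.925 among AAV-GFP mice and 0.850 to 0.926 between these groups. Each library is a different mouse, and n = 3 in each group throughout.

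Cre and Gfp, the transcripts the viruses deliver, were the only entries with an FDR under 0.1 in limma, 2 of 13506 (0.0148%). Cre had 26539, 19611 and 33105 reads in Creobese/Non-obese replicates 1, 2 and 3, and 1, 5 and 0 reads in AAV-GFP mice. Its signal was 4644, 5136 and 7064 in Creobese/Non-obese mice, so the highest of the 3 had 1.52 times the level of the lowest, and it took 0.460%, 0.499% and 0.703% of the reads. In Cre/Obese mice the signal was 1330, 8557 and 235, a range that holds all 3 Creobese/Non-obese values. The log2 fold change (log2 FC), taken between mean values of log2(signal + 1), was 12 (SE 0.64, FDR = 7.73e-12). Gfp had a signal of 79, 67 and 62.7 in AAV-GFP mice and 0 reads in every Creobese/Non-obese mouse. Against the floor of 3 reads per library it was at least 107-fold lower in Creobese/Non-obese mice (log2 FC = −6.13, SE 0.79, FDR = 3.0e-04). Libraries carried the transgene of their treatment label, and the 0 to 5 reads of Cre in AAV-GFP mice lie near the limit of detection. For each transgene the exact 2-sided permutation p was 0.1, the smallest that 3 against 3 allows. The Snord116 cluster itself was not analysed here, so these reads show delivery of Cre and not excision.

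**Figure D1:**
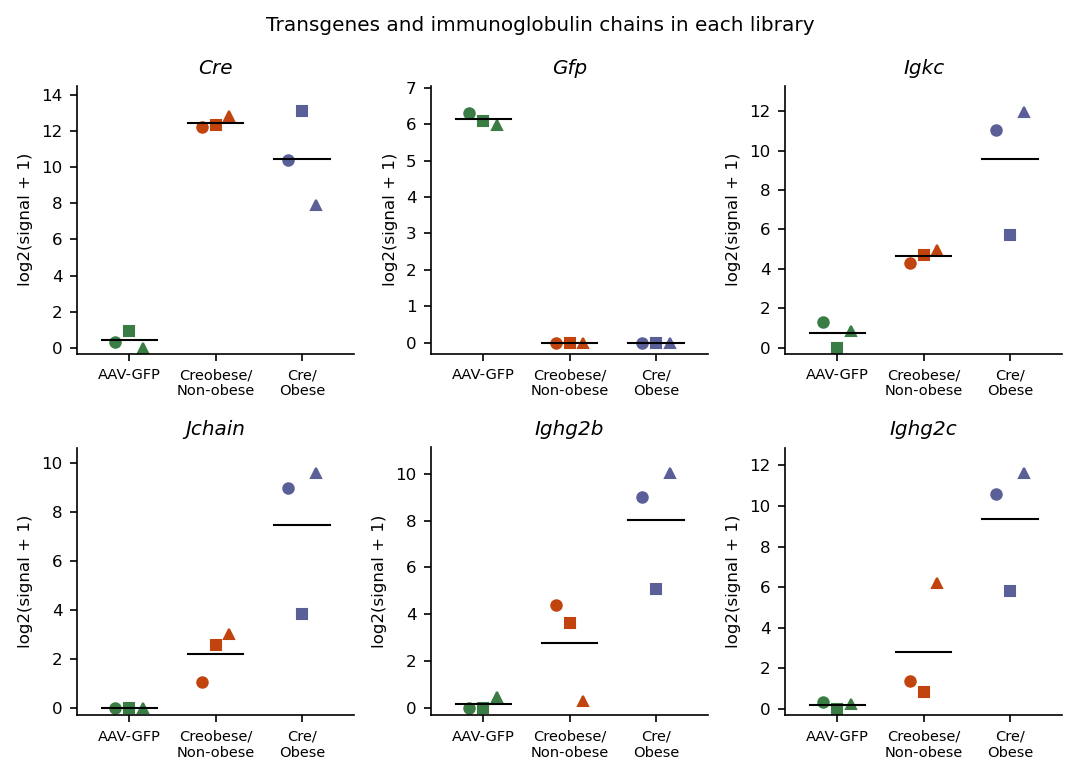
Log2(signal + 1) of 6 transcripts in each of the 9 libraries, by group. Circles, squares and triangles are replicates 1, 2 and 3, and horizontal lines are group means. Cre and Gfp separate the treatments, and in Creobese/Non-obese mice Igkc, Jchain and Ighg2c lie above all AAV-GFP mice.

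The immunoglobulin kappa constant chain Igkc (ENSMUSG00000076609, chromosome 6 from 70726435 to 70726966) came next to the transgenes. Its signal was 18.5, 24.9 and 30.5 in Creobese/Non-obese mice and 1.5, 0 and 0.777 in AAV-GFP mice, from 106, 95 and 143 reads against 6, 0 and 4 reads. All 3 Creobese/Non-obese mice lay above all AAV-GFP mice, yet the log2 FC of 3.94 (SE 0.87) had an FDR of 0.618. The Cre/Obese mice, which share the estimate of the spread, ranged more widely (2074, 52.2 and 4033). With only the 6 libraries compared in the fit, Igkc passed (FDR = 0.0197). It also passed in limma without replicate 2 of the Cre/Obese mice, an alternative chosen after the values were seen (FDR = 6.24e-07), and in edgeR's likelihood ratio test on recovered reads (log2 FC = 5.02, FDR = 0.00101). It did not pass in edgeR's quasi-likelihood test (FDR = 0.999) or in DESeq2 (FDR = 0.610). In bulk RNA of captured tissue, a change in the number of cells of a type and in the RNA per cell cannot be told apart.

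The likelihood ratio test called 6 entries (0.0444%), Cre, Gfp, Igkc and 3 more immunoglobulin transcripts. Jchain, which joins the subunits of secreted IgM and IgA, had 6, 19 and 33 reads in Creobese/Non-obese mice and 0 in every AAV-GFP mouse, at least 6.86-fold higher against the floor of 3 reads per library (likelihood ratio test FDR = 0.00101). The IgG heavy chain constant gene Ighg2b had 115, 44 and 1 reads against 0, 0 and 2 reads, so that replicate 3 lay within the AAV-GFP range (FDR = 0.00404). Ighg2c had 9, 3 and 339 reads against 1, 0 and 1 reads, without overlap but with nearly all of them in replicate 3 (FDR = 0.00545). The heavy chains of IgA and IgM, Igha and Ighm, were looked up after their values were seen, with 0, 53 and 1 and 73, 0 and 31 reads in Creobese/Non-obese mice and 0, 0 and 7 and 14, 37 and 5 in AAV-GFP mice, and both overlapped. The heavy chain with the most reads thus differed between mice of the group, Ighg2b in replicate 1, Igha in replicate 2 and Ighg2c in replicate 3. Ighg2b and Ighg2c are similar in sequence, and reads from stretches they share can be split between them. None of these 3 genes passed in limma, in the quasi-likelihood test or in DESeq2, and without replicate 2 of the Cre/Obese mice their FDR in limma was 0.999.

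Of the 19 genes on the immunoglobulin and plasma cell list, 9 were tested. They had passed the filter through AAV-Cre libraries, so no count, sum or order over them is read as support. The B cell genes Ms4a1, Cd79a and Cd79b were not analysed here. The summed signal of the list was 57.6, 56.6 and 123 in Creobese/Non-obese mice, 5.49, 8.81 and 4.86 in AAV-GFP mice, and 6443, 165 and 11419 in Cre/Obese mice. All 3 Creobese/Non-obese mice lay above the AAV-GFP mice and below every Cre/Obese mouse, of which replicate 2 was the nearest.

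Outside the transgenes and the immunoglobulin transcripts, no entry was called in limma, in either edgeR test or in DESeq2. At an unadjusted p under 0.05 in limma, 140 entries were higher (1.04%) and 166 lower (1.23%) in Creobese/Non-obese mice. That threshold was passed by 284 entries in the quasi-likelihood test, 384 in the likelihood ratio test and 384 in DESeq2. In limma with only the 6 libraries compared in the fit, 562 entries passed it. The main fit takes its spread, and so its SEs and intervals, from all 3 groups, the Cre/Obese mice included. All 3 Creobese/Non-obese mice lay above all AAV-GFP mice for 617 entries (4.57%) and below them for 696 (5.15%). With 3 against 3, groups without overlap reach an exact 2-sided permutation p of 0.1 and no lower, so a lack of overlap alone is weak. Among the 696, replicate 2, the library with the most entries at 0, was the lowest of its group in 316, against 168 for replicate 1 and 185 for replicate 3. After Igkc the lowest FDR was 0.999, and the median log2 FC over all entries was −0.02.

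**Figure D2:**
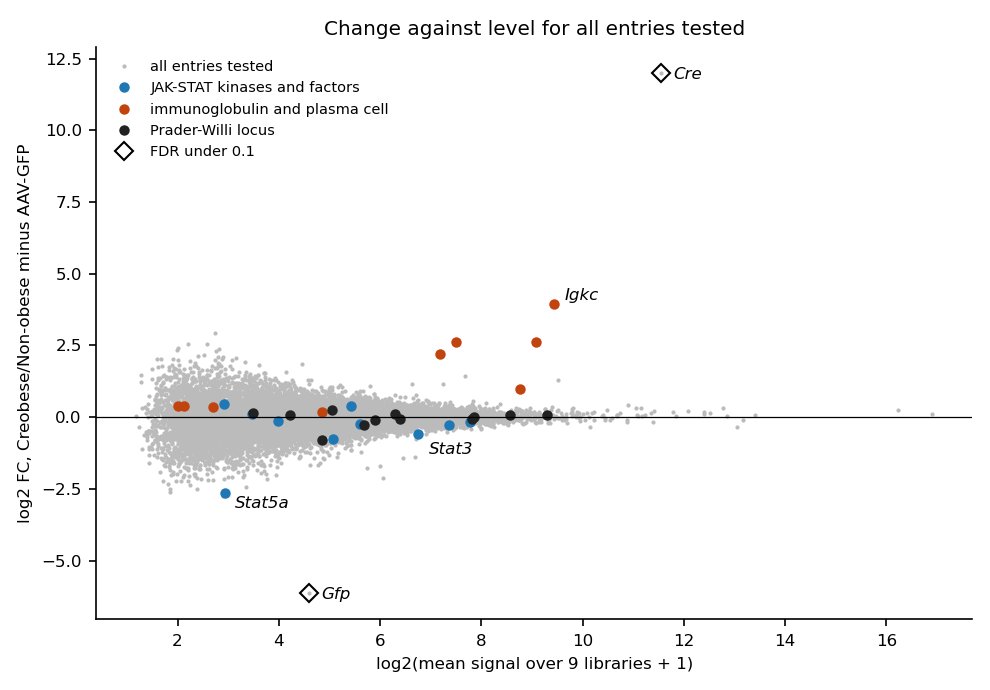
Log2 FC of Creobese/Non-obese minus AAV-GFP mice against log2 of the mean signal over 9 libraries plus 1, a point per entry tested. Coloured points are genes of 3 lists and open diamonds mark an FDR under 0.1. Only Cre and Gfp carry a diamond, and the spread of the points narrows as the level rises.

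The precision followed the level. The median SE of a log2 FC was 0.87 in the 3377 entries with a mean signal up to 8.96, and 0.24 in the 3377 entries above 55.1. In the latter, 93.8% of the 95% intervals lay within a log2 FC of −1 to 1, so a 2-fold difference lies outside the interval for these genes. In the former it was 0%. Over all entries 35.4% of the intervals (4782) lay within these bounds. Among the 407 genes tested on the lists that follow, 134 did. For the other genes a value without a call leaves room for a 2-fold difference.

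Of the 5 ligands of the leptin-melanocortin pathway on the list, 0 had an FDR under 0.1 in limma and 0 an unadjusted p under 0.05. Pomc, precursor of the melanocortins, had a signal of 71.2, 92.5 and 12.8 in Creobese/Non-obese mice and 100.5, 64.7 and 8.16 in AAV-GFP mice. The third replicate of both groups was low, and the log2 FC was 0.20 (95% interval from −1.43 to 1.83). Agrp, the antagonist of melanocortin receptors, read 3.67, 17.8 and 13.9 against 14.5, 5.94 and 2.33, with overlapping groups (log2 FC = 0.62, 95% interval from −1.27 to 2.52), and its exons overlap those of Ctcf on the opposite strand. Npy, expressed in the same neurons, had a log2 FC of 0.27 (95% interval from −0.66 to 1.2). Cartpt, the precursor of an appetite-restraining peptide, had 134, 162 and 59.1 against 164, 108 and 70.1 (log2 FC = 0.01, 95% interval from −0.62 to 0.65), and it is the only ligand whose interval excludes a 2-fold difference. Bdnf, a growth factor that acts below the melanocortin receptors, was the only ligand whose groups did not overlap, with 11.9, 2.1 and 9.82 in Creobese/Non-obese mice and 15, 13.4 and 14.8 in AAV-GFP mice. Replicate 2 was the lowest and the log2 FC was −1.02 (95% interval from −2.74 to 0.70). Over all entries 5.15% were lower without overlap.

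Of the 11 receptors and coreceptors on the list, 10 were tested, with 0 called and 0 at an unadjusted p under 0.05. The leptin receptor Lepr had 5.07, 1.83 and 15.4 in Creobese/Non-obese mice and 14.7, 10.9 and 12.4 in AAV-GFP mice. Replicates 1 and 2 lay below and replicate 3 above the AAV-GFP mice, with a log2 FC of −1.05 (95% interval from −2.4 to 0.29). Ntrk2, the receptor of Bdnf, had a log2 FC of −0.07 (95% interval from −0.39 to 0.24), and the insulin receptor Insr 0.26 (95% interval from −0.41 to 0.92). Mrap2, an accessory protein of melanocortin receptors, had 33.8, 22.3 and 34.1 against 30.2, 14.9 and 21.2 (log2 FC = 0.46, 95% interval from −0.37 to 1.28).

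Prohormone processing was the best measured part of the pathway. None of the 7 genes was called or had an unadjusted p under 0.05 in limma, and 6 of the 7 intervals lay within a log2 FC of −1 to 1. Pcsk1, the convertase that makes the initial cuts in Pomc, had 43.6, 27.8 and 43.1 in Creobese/Non-obese mice and 45.1, 27.8 and 28.2 in AAV-GFP mice (log2 FC = 0.18, 95% interval from −0.58 to 0.94). Pcsk2 had a log2 FC of 0.18 (95% interval from −0.30 to 0.65). Cpe, the carboxypeptidase that trims the cut peptides, had a log2 FC of 0.09 (95% interval from −0.22 to 0.40). The exception in precision was Nhlh2, a transcription factor linked to Pcsk1 expression, with 4.2, 15.7 and 24.5 against 10.2, 6.32 and 10.5 (log2 FC = 0.41, 95% interval from −0.80 to 1.63).

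**Figure D3:**
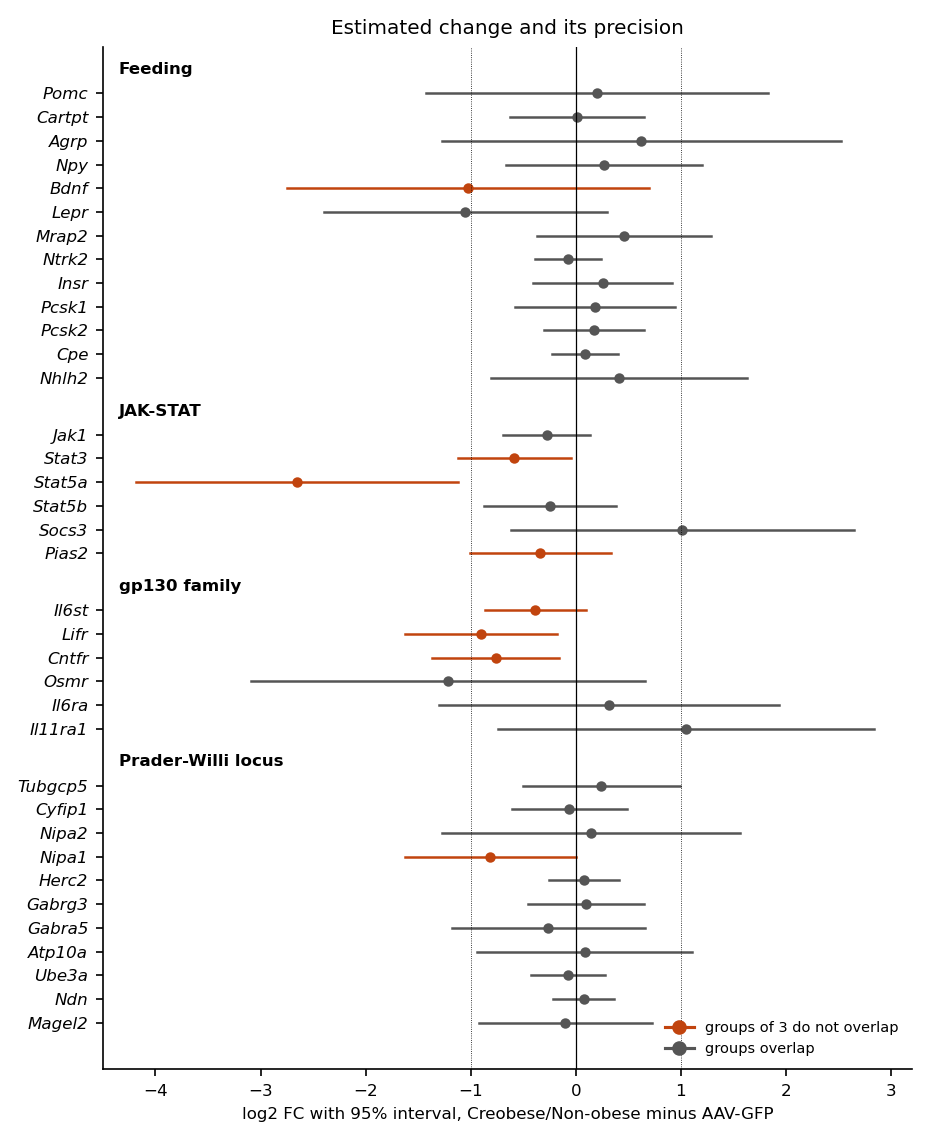
Log2 FC (points) with 95% intervals (lines) for genes of feeding, JAK-STAT signalling, the gp130 receptor family and the Prader-Willi locus. Dotted lines mark −1 and 1, and orange marks genes whose groups of 3 do not overlap. Cpe, Ntrk2 and Ndn are among the genes with narrow intervals, and Stat5a lies farthest from 0.

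After Gfp, the smallest p among entries lower without overlap belonged to Stat5a, a transducer of cytokine and hormone signals. Of the 11 JAK-STAT kinases and factors, 10 were tested, with 0 called. Stat5a and Stat3 were lower with an unadjusted p under 0.05 in limma and groups that did not overlap. Over all entries 1.23% were lower at that p and 5.15% were lower without overlap. Stat5a (ENSMUSG00000004043, chromosome 11 from 100859351 to 100885169) read 0, 1.83 and 2.13 in Creobese/Non-obese mice and 12.7, 13.6 and 10.1 in AAV-GFP mice, from 0, 7 and 10 reads against 51, 71 and 52 reads. Cre/Obese mice lay between, with 4.72, 7.72 and 6.74. The log2 FC was −2.66 (SE 0.74, unadjusted p = 0.00152, FDR = 0.999 in limma), and it ran from −2.95 to −2.13 when each of the 6 mice was left out in turn. Stat3 (ENSMUSG00000004040, chromosome 11 from 100885098 to 100939540), the factor that leptin activates, had 75.8, 60.8 and 61.9 against 97.7, 93.3 and 107 (log2 FC = −0.58, SE 0.26, unadjusted p = 0.0342, FDR = 0.999). The ends of these genes overlap on opposite strands, and reads there cannot be told apart if the strand was ignored in counting. Stat5b, a close relative of Stat5a looked up after its values were seen, overlapped between groups with 47.2, 26.5 and 42 and 36.2, 54.2 and 45.4 (log2 FC = −0.25, 95% interval from −0.87 to 0.38). Jak1 had a log2 FC of −0.28 (95% interval from −0.69 to 0.14).

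Inhibitors of the pathway, 14 of 15 tested, were at 0 called and 0 with an unadjusted p under 0.05 in limma. Socs3 (ENSMUSG00000053113, chromosome 11 from 117966079 to 117970047) had 4.9, 7.07 and 3.2 in Creobese/Non-obese mice and 3.99, 0.766 and 1.75 in AAV-GFP mice, where replicate 3 of the former fell inside the range of the latter. Its log2 FC was 1.02 (95% interval from −0.61 to 2.64), an interval that holds both no difference and a 4-fold one. Pias2, a protein that binds activated STAT factors, had 40.6, 34.8 and 37.3 against 41.4, 57.3 and 45.6, without overlap (log2 FC = −0.34, 95% interval from −1.01 to 0.33).

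Receptors of the gp130 family, which signal through Stat3, were looked up after the values of Stat3 had been seen. Lifr, the receptor of leukemia inhibitory factor, had 46.2, 16.5 and 43.1 in Creobese/Non-obese mice and 59.8, 63.8 and 59.2 in AAV-GFP mice (log2 FC = −0.90, unadjusted p = 0.0167, FDR = 0.999 in limma). Cntfr, the receptor of ciliary neurotrophic factor, had 46.4, 30.4 and 30.9 against 54.6, 66.1 and 61.2 (log2 FC = −0.76, unadjusted p = 0.0153). The shared subunit Il6st, gp130 itself, had 67.7, 74.6 and 52.1 against 89.5, 83.1 and 79.8 (log2 FC = −0.39, unadjusted p = 0.112). For these 3 of the 6 genes looked up every Creobese/Non-obese mouse lay below every AAV-GFP mouse, as for 5.15% of all entries, and none was called. Groups overlapped for Osmr (log2 FC = −1.22), Il6ra (0.32) and Il11ra1 (1.05), which had signals of at most 17.5 in these mice. Osmr ran from −1.86 to −0.42 with each mouse left out, the extremes being without Creobese/Non-obese replicates 3 and 2.

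At the Prader-Willi locus, 12 of 19 listed genes were tested, with 0 called and 0 at an unadjusted p under 0.05 in limma. Snrpn, Snurf, Snhg14, Ipw, Mkrn3, Peg12 and Oca2 were not analysed here. Ndn (ENSMUSG00000033585, chromosome 7 from 62346569 to 62350262), a paternally expressed neighbour of the deleted cluster, had 624, 646 and 627 in Creobese/Non-obese mice and 613, 654 and 539.5 in AAV-GFP mice (log2 FC = 0.07, 95% interval from −0.22 to 0.37). Magel2, also expressed from the paternal chromosome, had 37.4, 59.5 and 59.3 against 97.2, 81.6 and 20.2, with the AAV-GFP mice more than 4-fold apart (log2 FC = −0.10, 95% interval from −0.92 to 0.73). Ube3a, expressed from the maternal chromosome in neurons, had 220.5, 216 and 247 against 253, 214 and 254 (log2 FC = −0.08, 95% interval from −0.43 to 0.28), and its exons overlap those of the antisense Snhg14. The receptor subunits Gabra5 and Gabrg3 had log2 FCs of −0.26 and 0.10. The biallelic genes Herc2, Tubgcp5 and Cyfip1 were at 0.08, 0.24 and −0.06, and Nipa2 and Atp10a at 0.15 and 0.08, with the exons of Nipa2 and Cyfip1 overlapping on opposite strands. Nipa1 (ENSMUSG00000047037, chromosome 7 from 55977567 to 56019954), a magnesium transporter gene, was the only one of the 12 without overlap, at 20.8, 16.2 and 27.3 in Creobese/Non-obese mice and 40.1, 30.1 and 44.1 in AAV-GFP mice (log2 FC = −0.81, 95% interval from −1.63 to 0.00, unadjusted p = 0.0505). Over all entries 5.15% were likewise lower without overlap. Of the 12 intervals, 8 lay within a log2 FC of −1 to 1.

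Imprinted genes elsewhere in the genome had a median log2 FC of −0.05 over 28 tested of 32 listed, with 23 intervals within −1 to 1. Peg3 had 2706, 2745 and 2810 against 2364, 2596 and 2541, higher in all Creobese/Non-obese mice by a log2 FC of 0.14 (95% interval from −0.13 to 0.41) that turned to −0.088 under quantile normalization, and Meg3 a log2 FC of 0.12 (95% interval from −0.21 to 0.45). The growth factor Igf2, which meningeal cells and vessels express, had 16.1, 8.91 and 13.9 against 22.7, 30.4 and 24.7, without overlap (log2 FC = −0.97, unadjusted p = 0.0695 in limma).

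Markers of hypothalamic nuclei varied among the mice of each group. Nr5a1 and Fezf1, transcription factors of the ventromedial nucleus, were at 15.2, 16.2 and 0 and 12.1, 52.6 and 3.63 in Creobese/Non-obese mice and at 35.2, 33.9 and 0 and 48.4, 39.3 and 0 in AAV-GFP mice. They were chosen after their values were seen. Replicate 3 of each group had few or no reads of either gene, and the part of this in other results was not tested. The 9 listed ventromedial genes had a median log2 FC of −0.04 and the 9 arcuate genes tested 0.20, with 0 called in both. Melanin-concentrating hormone, a lateral hypothalamic peptide that promotes feeding, is made from Pmch, which had 744, 142 and 58.9 in Creobese/Non-obese mice and 78.8, 222 and 16.5 in AAV-GFP mice. Replicate 1 alone lay above the AAV-GFP range, and the log2 FC of 1.45 (unadjusted p = 0.0399, FDR = 0.999 in limma) ran from 0.45 to 2.31 as each mouse was left out. Nts and Sst, precursors of neurotensin and somatostatin, had log2 FCs of −0.98 and 0.60 with overlapping groups. Gad2, which makes the transmitter GABA, was at 239.7, 82.2 and 242 against 253, 203 and 222, low in replicate 2 only (log2 FC = −0.42).

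Pan-neuronal genes were measured with precision. All 11 pan-neuronal genes had intervals within a log2 FC of −1 to 1, with a median of 0.09. Snap25, a protein of synaptic vesicle release, had 1041, 1147 and 1014 in Creobese/Non-obese mice and 841, 905 and 830.2 in AAV-GFP mice, higher without overlap (log2 FC = 0.31, 95% interval from −0.03 to 0.65). Map2 had a log2 FC of 0.06 (95% interval from −0.29 to 0.40). Nuclear hormone receptors, 9 of 10 tested, had a median log2 FC of −0.02, and the thyroid hormone receptor Thra was at 0.01 (95% interval from −0.36 to 0.37).

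Other cell types were read from their markers, and no gene of these lists was called in limma. The 12 astrocyte genes had a median log2 FC of 0.05. Slc1a2, the glutamate transporter, was at −0.10 (95% interval from −0.38 to 0.19), and Mlc1 at 59, 57.4 and 58.7 against 59.8, 81.4 and 95.2, lower without overlap. The 14 oligodendrocyte genes had a median of 0.30, and their summed signal was 2869, 1304 and 1908 in Creobese/Non-obese mice and 1288, 1433 and 2028 in AAV-GFP mice, high in replicate 1 of the former. The myelin genes Mbp and Ermn had log2 FCs of 0.31 and 0.86, both with overlap. Of the precursor genes, Sox10 was at 0.94 with overlap, and Pdgfra at −0.26 without it. Vessel markers overlapped for Flt1 (0.07) and Rgs5 (−0.10), and Kdr had 21.2, 11.8 and 14.3 against 5.24, 11.3 and 8.93, higher without overlap. Of the 12 endothelial genes tested, 5 were above 0, Kdr among them, and 7 below, with a median of −0.20. Esam was the lowest of the list at −1.34. The microglial genes had a median of −0.15, with Csf1r at 46.4, 26.5 and 25.8 against 30.9, 36 and 52.4 and the surface receptors P2ry12 and Gpr34 at log2 FCs of −0.87 and −1.34.

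Meningeal and fibroblast genes were lower in the sum. Of 9 listed genes 6 were tested, all with a log2 FC below 0 and a median of −0.96, and the summed signal was 93.8, 55.0 and 111 in Creobese/Non-obese mice and 395, 186 and 117 in AAV-GFP mice, without overlap. Ptgds, a prostaglandin synthase of the meninges and choroid plexus, made up most of it, with 52.8, 37.7 and 88.8 against 337, 137 and 70.7 (log2 FC = −1.39, unadjusted p = 0.00154, FDR = 0.999 in limma). Replicate 3 of the AAV-GFP mice lay inside the Creobese/Non-obese range, and the log2 FC ran from −1.92 to −0.80 with each mouse left out. Hba-a2, a hemoglobin chain, had 5.6, 2.62 and 5.55 against 1.75, 0.766 and 0.583, higher without overlap, whereas Hbb-bs overlapped (log2 FC = 0.34). The other hemoglobin genes tested, Hba-a1 and Hbb-bt, had log2 FCs of −0.13 and −0.20. Of the 5 blood genes tested, 3 were above 0 and 2 below. The tanycyte gene Gpr50 had a log2 FC of −1.27. None of the 8 pituitary genes on the list was analysed here.

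The remaining lists had 0 genes called, and their medians lay between −0.92 and 0.34. For nuclei they were 0.01 over 5 of 8 dorsomedial and lateral genes and −0.36 over 5 of 9 paraventricular genes. Genes of transmitter identity were at −0.11 (9 of 14 tested), other neuropeptides at −0.04 (13 of 24) and the insulin-like growth factor system at −0.09 (8 of 10). Vessel lists were at −0.20 for endothelium (12 of 13) and −0.16 for pericytes and mural cells, where all 8 genes tested of 9 were below 0. The tanycyte and ependymal list was at −0.47 (7 of 13), the choroid plexus list at −0.92 (2 of 7) and the blood list at 0.34 (5 of 6). T and NK cell genes were at 0.22 over 6 of 16, with a summed signal of 11.7, 15.5 and 9.39 in Creobese/Non-obese mice and 8.73, 9.0 and 9.13 in AAV-GFP mice. Over all 407 genes tested, 14 were higher (3.44%) and 21 lower (5.16%) without overlap, near or under the 4.57% and 5.15% of all entries. At an unadjusted p under 0.05 in limma, 9 were higher (2.21%) and 6 lower (1.47%), against 1.04% and 1.23% of all entries. Of the 9 higher genes, 4 are on the immunoglobulin list and 3 are encoded by the mitochondrial genome. The immunoglobulin genes passed the filter through AAV-Cre libraries, so the share of 2.21% is not read as support.

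Of 12 reactive astrocyte genes 8 were tested, with 0 called and a median of −0.51. Gfap, the filament protein of reactive astrocytes, had 60, 22.8 and 17.7 in Creobese/Non-obese mice and 83, 60.3 and 10.1 in AAV-GFP mice (log2 FC = −0.36), against 369, 129.8 and 640.1 in Cre/Obese mice. Serpina3n, another gene of reactive astrocytes, had 66, 37.7 and 24.3 against 103, 57.4 and 50.9 (log2 FC = −0.75, unadjusted p = 0.0213), with overlap. S1pr3 had 9.97, 6.55 and 10.7 against 0, 6.32 and 3.5, higher without overlap.

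**Figure D4:**
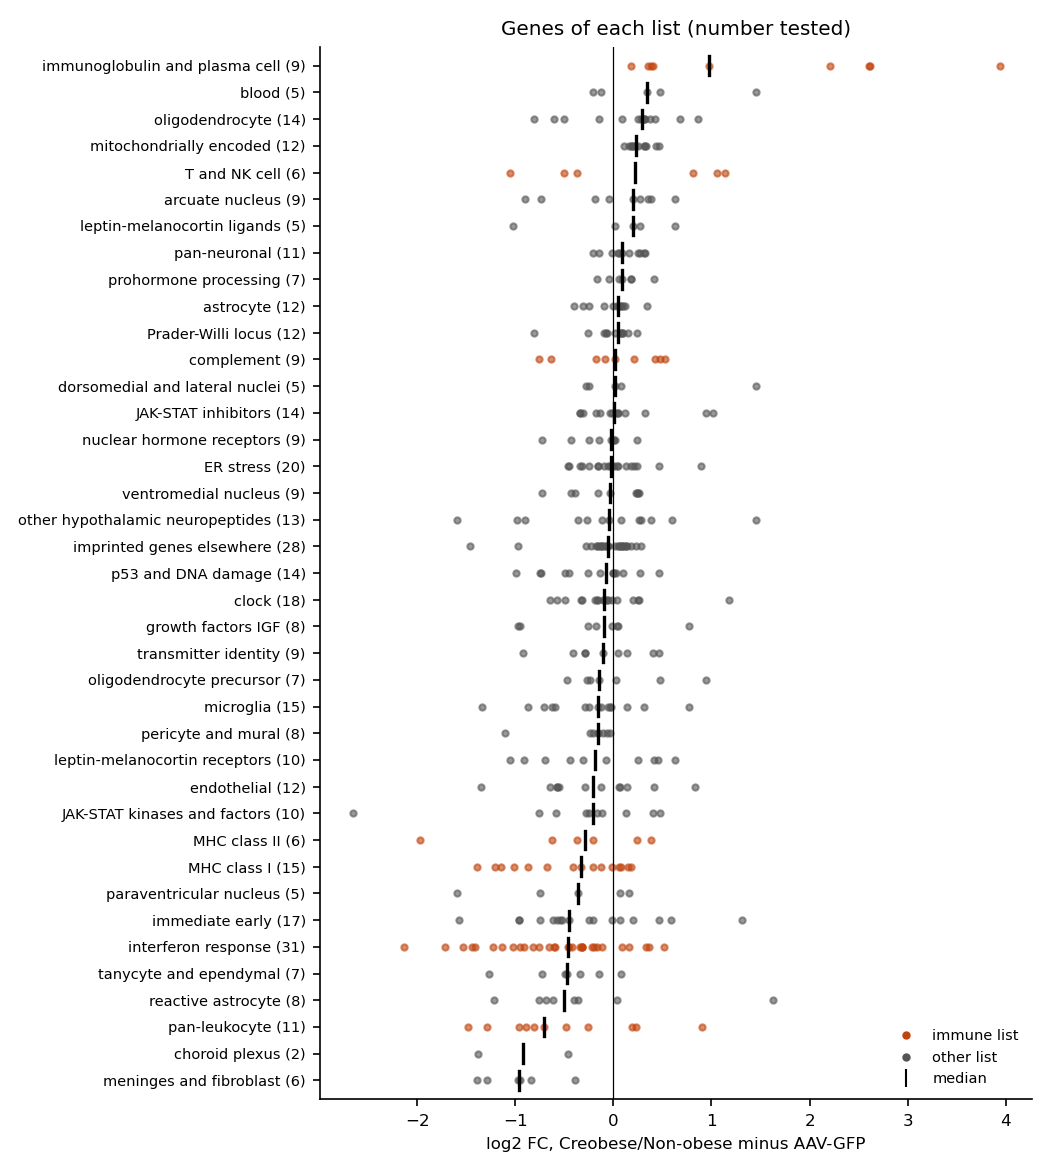
Log2 FC of Creobese/Non-obese minus AAV-GFP mice for every gene tested of each list, a point per gene, with list medians as bars and the number tested in parentheses. The immunoglobulin and plasma cell genes, which passed the filter through AAV-Cre libraries, reach farthest to the right, and the interferon, leukocyte and meningeal lists stand towards the bottom with medians of −0.47, −0.70 and −0.96.

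Immune transcripts were counted over all immune lists and without immunoglobulins. Of 118 listed immune genes 87 were tested, and 0 were called in limma, where 4 were higher and 2 lower at an unadjusted p under 0.05. All 4 that were higher are on the immunoglobulin list, whose genes passed the filter through AAV-Cre libraries. Without that list, 56 of 78 genes (71.8%) had a log2 FC below 0, against 51.9% of all entries, and the median was −0.37 against −0.02 over all entries. The lists differed, and complement genes had a median of 0.02 with 5 of 9 above 0. Interferon response genes had a median of −0.47, with 26 of 31 below 0. The guanylate-binding protein Gbp7 had 10.1, 0 and 2.35 in Creobese/Non-obese mice and 18.2, 16.3 and 8.55 in AAV-GFP mice with overlap (log2 FC = −2.14, unadjusted p = 0.0169). It ran from −3.0 to −1.27 with each mouse left out, the extremes being without Creobese/Non-obese replicates 1 and 2. The GTPase Igtp had 1.4, 0.786 and 3.41 against 7.73, 8.81 and 6.8, without overlap. Exons of Igtp overlap Irgm2 on the same strand. Genes at 0 reads among the 78 numbered 6, 20 and 13 in Creobese/Non-obese mice and 10, 2 and 9 in AAV-GFP mice. The share of all entries set beside the 78 was not matched for level. Replicate 2 of the Creobese/Non-obese mice, the library with the most entries at 0, had no read of Gbp7 or Nlrc5. The part of depth, or of other traits of that library, in these values was not tested. The summed signal of the 78 genes was 627, 552 and 604 in Creobese/Non-obese mice and 691, 927 and 593 in AAV-GFP mice, with overlap.

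Antigen presentation genes also had medians below 0. The MHC class I list was at −0.33 over 15 genes, 11 of them below 0, with H2-K1 at 13.8, 10.2 and 33.9 against 14, 29.5 and 24.1 and H2-Q7 at 1.92, 4.71 and 2.77 against 7.23, 6.13 and 10.7, the latter without overlap. These class I genes are similar in sequence, and reads from stretches they share can be split between them. Nlrc5, which switches on class I genes, had 0.875, 0 and 1.28 against 5.73, 1.91 and 2.91, without overlap (log2 FC = −1.39, unadjusted p = 0.13). Of the class II genes, Cd74 and H2-Ab1 stood at 4.2, 1.31 and 1.92 and 2.62, 0 and 0 in Creobese/Non-obese mice, near the floor, and at 2.49, 4.79 and 2.72 and 0.249, 4.98 and 0.777 in AAV-GFP mice, while H2-DMa had 4.2, 1.31 and 0.213 against 9.23, 10.3 and 6.6, without overlap. The complement gene C1qa was higher without overlap, at 14.3, 13.6 and 23.9 against 10.7, 9.96 and 13.4, while C1qb had a log2 FC of −0.17, and the leukocyte genes Coro1a, Cd53 and Lcp1 −0.96, −1.48 and 0.19. In limma the unadjusted p of Coro1a was 0.0493, with overlapping groups.

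Transcripts encoded by the mitochondrial genome, 12 of 13 tested, had log2 FCs from 0.11 to 0.47 and a median of 0.24. All 12 intervals lay within −1 to 1. The complex I subunit mt-Nd6 had 1978, 3049 and 1543 in Creobese/Non-obese mice and 1638, 1752 and 1318 in AAV-GFP mice (log2 FC = 0.43, unadjusted p = 0.046 in limma), and the cytochrome oxidase subunit mt-Co3 2331, 3286 and 2176 against 1865, 2180 and 2055 (log2 FC = 0.33, unadjusted p = 0.0492). Replicate 2 was the highest for both, and groups overlapped. The log2 FCs of mt-Atp6 and mt-Co1 were 0.32 and 0.16. Mitochondrial entries took 25.8%, 25.7% and 25.3% of the reads in Creobese/Non-obese mice and 25.4%, 22.7% and 22.8% in AAV-GFP mice.

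Programs of activity, time of day and stress had medians near 0 for clock (−0.09), p53 (−0.07) and endoplasmic reticulum stress genes (−0.02) and −0.45 for immediate early genes, with 0 called in each. Among 18 clock genes, the repressor Cry1 had 16.3, 26.5 and 23.5 in Creobese/Non-obese mice and 6.98, 15.3 and 6.6 in AAV-GFP mice (log2 FC = 1.18, unadjusted p = 0.0416, FDR = 0.999 in limma). Nr1d1, a repressor that oscillates with the time of day, had 29, 30.4 and 33.3 against 47.9, 48.6 and 43.1 (log2 FC = −0.58). Both were without overlap, and Nr1d1 exons overlap Thra on the opposite strand. The immediate early genes Dusp6 and Jund had log2 FCs of −1.58 and −0.57, the p53 target Plk2 −0.49, and the stress factor Atf5 6.47, 10.7 and 8.75 against 3.24, 4.79 and 4.47, higher without overlap.

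The leading entries outside these lists were taken by the smallest unadjusted p among entries whose groups did not overlap, 4.57% of entries higher and 5.15% lower, and none passed an FDR of 0.1. Snrnp27, a protein of the spliceosome, led the higher ones with 53.4, 81.5 and 66.8 in Creobese/Non-obese mice and 34.2, 30.6 and 28 in AAV-GFP mice (log2 FC = 1.08, unadjusted p = 0.00152, FDR = 0.999 in limma). Alg14, a subunit of an early enzyme of protein N-glycosylation, had 9.62, 19.4 and 11.1 against 2.24, 0.766 and 0 (log2 FC = 2.95). Gpatch3 had 8.57, 7.86 and 10.7 against 0.249, 2.87 and 0, and Cep126, a centrosomal protein, 30.8, 24.1 and 39.5 against 13.2, 10.7 and 12.2. Ppa2, the mitochondrial pyrophosphatase, was at a log2 FC of 1.04 and St13, a cochaperone of Hsp70, at 0.56. The mitochondrial tRNA genes mt-Tq and mt-Tt had log2 FCs of 0.79 and 1.05, and mt-Tq overlaps mt-Ti on the opposite strand.

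The leading lower entries after Gfp and Stat5a were also uncalled. Nfkb1, which encodes the p50 subunit of NF-kB, had 11.2, 12.8 and 14.1 in Creobese/Non-obese mice and 35.9, 31.2 and 24.3 in AAV-GFP mice (log2 FC = −1.19, unadjusted p = 0.00466, FDR = 0.999 in limma). Ripk2, a kinase that passes signals of bacterial sensors to NF-kB, had 0.70, 0 and 0.854 against 19.7, 3.83 and 8.55 (log2 FC = −2.75), and Nkiras2, an inhibitor of NF-kB, 1.05, 0 and 1.07 against 5.98, 11.5 and 7.96 (log2 FC = −2.51). Both stood at 0 to 6 reads in Creobese/Non-obese mice. Rnf19b, an E3 ubiquitin ligase, had 5.6, 14.1 and 16 against 39.6, 28.9 and 26.6, and the mRNA decapping factor Dcp1a 11.5, 5.5 and 17.5 against 39.1, 38.3 and 24.7. The protease Adamts1 and the DNA-binding protein Bend4 had log2 FCs of −2.45 and −1.73. The 5S rRNA gene n-R5s193 (−1.24) is near identical to other copies, and its reads are uncertain. Exons of Bdnf, Pmch, Coro1a, H2-DMa, Nipa1, Nkiras2, Bend4 and mt-Nd6 overlap a gene on the opposite strand in the annotation, and the same holds for them.

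**Figure D5:**
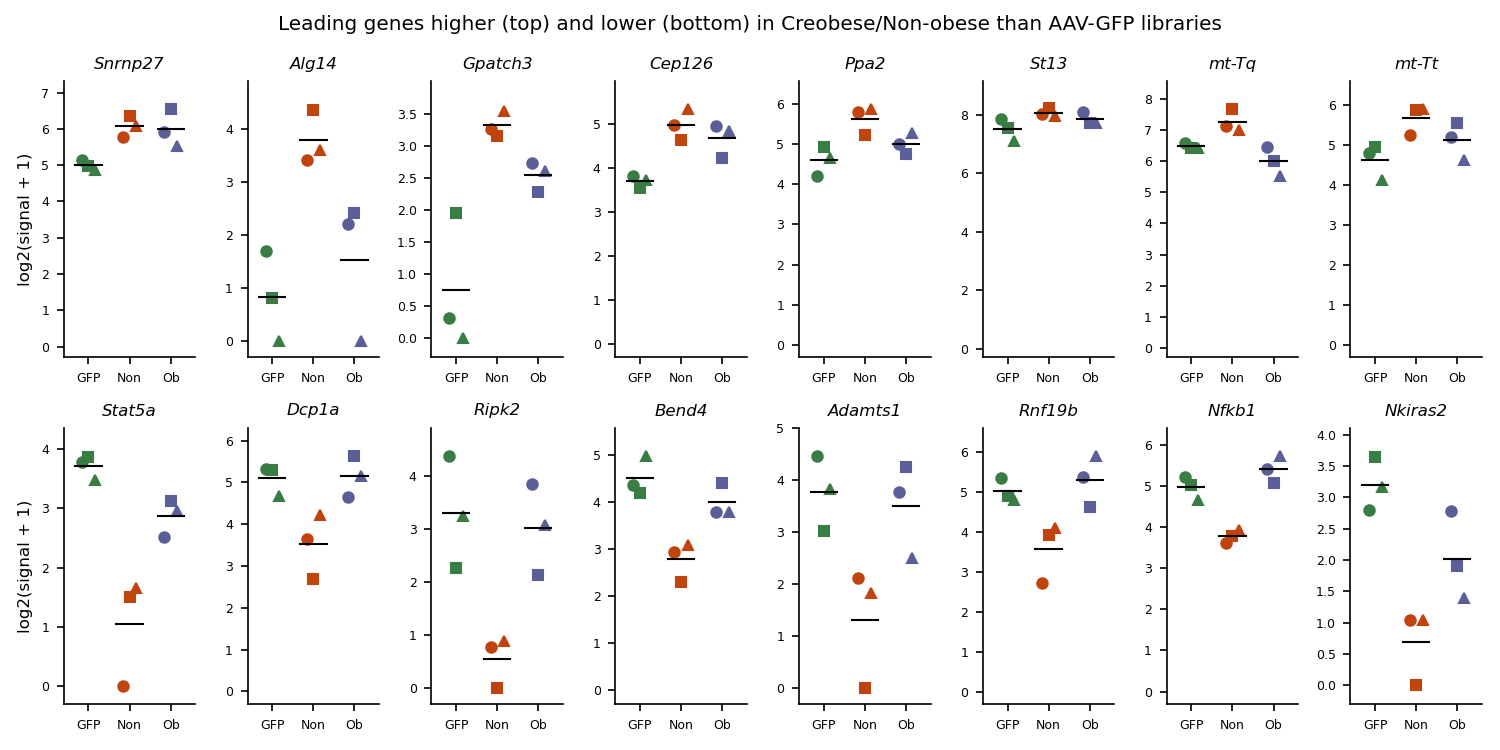
Log2(signal + 1) in each library for 8 leading genes higher (top row) and 8 lower (bottom row) in Creobese/Non-obese (Non) than in AAV-GFP mice (GFP), with Cre/Obese mice (Ob) beside them. Circles, squares and triangles are replicates 1, 2 and 3, and lines are group means. Each gene was chosen because the Non and GFP groups do not overlap, and all scales start near 0.

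The AAV-Cre groups were compared directly for the genes named above. Tested in the same fit, 99 entries were lower (0.733%) and 29 higher (0.215%) in Creobese/Non-obese mice at an FDR under 0.1. Of the 87 immune genes, 36 were lower and 0 higher. The interferon list held 14 of them, MHC class I 10 and immunoglobulins 4. A gene near the floor elsewhere can pass the filter through the 3 Cre/Obese libraries alone, so these counts are not read as support. The summed signal of the immune genes was 685, 608 and 727 in Creobese/Non-obese mice and 20002, 1048 and 23658 in Cre/Obese mice, where replicate 2 was the nearest. Without replicate 1 or 3 of the Cre/Obese mice 2 or 3 entries in all passed, against 908 without replicate 2. No gene of leptin-melanocortin signalling, prohormone processing or the Prader-Willi locus was called between the AAV-Cre groups. Stat3 was lower in Creobese/Non-obese than in Cre/Obese mice (log2 FC = −1.15, FDR = 0.0386), as were Nfkb1 (log2 FC = −1.63, FDR = 0.049) and Gfap (log2 FC = −3.39, FDR = 0.00668), whereas Stat5a was not called (log2 FC = −1.81, FDR = 0.337).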

How the data were processed

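RNA was prepared with a strand-marking low-input kit. Per the labels, reads were handled by the submitters with CASAVA 1.7, TopHat2 2.0.11, HTSeq, edgeR and limma on GRCm38. The strand setting of the counting is not given in the sources used here. The authors deposited signal, read counts divided by TMM-scaled library sizes, for 13588 entries, 2 of them the transgenes. The fit had been planned for CPM values. Every value was a whole number of reads within 0.01 read, so the recovered reads also served count models.

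Values were analysed as log2(signal + 1) in limma 3.58.1 (R 4.3.3), with 3 groups of 3 libraries, a variance trend and Benjamini-Hochberg adjustment (FDR) over the 13506 entries that reached a signal of 1 in 3 or more libraries. An FDR under 0.1 was called. edgeR 4.0.16 and DESeq2 1.42.0 were alternatives. The scripts were tested on simulated data. Positions are from GENCODE on GRCm38. Genes named are the transgenes, entries called by any tool, feeding genes central to the study, 10 leading entries in each direction, and up to 4 genes a list (the 2 with the smallest p and the 2 with the highest signal), plus the Prader-Willi locus. A few genes the rule names are not reported here. Members and lists were chosen with earlier results of these data known. In the main fit a p-value sets a difference between groups against the spread between mice, estimated over all 3 groups. Each mouse gave a single library, so that spread also holds differences of capture and preparation.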

Additional observations from a re-analysis of the deposited data

Results flagged for a closer look

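Among the genes named above, 22 differed between Creobese/Non-obese and Cre/Obese mice in limma (FDR under 0.1), and the log2 FCs are Creobese/Non-obese minus Cre/Obese. The immune genes among these 22 share the limit of the filter given above. Immunoglobulin genes were lower, with Igkc at −4.92, Ighg2b at −5.26, Ighg2c at −6.54 and Jchain at −5.26. Class I genes were at −4.21 for H2-K1, −4.09 for H2-Q7 and −5.08 for Nlrc5, and class II genes at −6.18 for Cd74 and −6.07 for H2-Ab1. The interferon response genes Gbp7 and Igtp were at −4.85 and −4.96. The complement genes C1qa and C1qb stood at −2.50 and −2.69, the microglial receptor Csf1r at −1.48, and the leukocyte genes Cd53 and Lcp1 at −3.37 and −1.82. The reactive astrocyte genes Serpina3n and Gfap were at −2.31 and −3.39. Among signalling genes Stat3 was at −1.15, Rnf19b at −1.72 and Nfkb1 at −1.63. The mitochondrial tRNA gene mt-Tq (1.26) was higher in Creobese/Non-obese mice.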

How the results depend on the processing

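The limits are the 3 mice a group, the depth, which leaves genes of low signal without a bound of 2-fold, and a title that contradicts the weight label. Of 2350 values of 112 named genes in 21 further fits, 2282 kept their direction and side of the threshold, and 82 genes never changed sign. Apart from Cre, Gfp and Igkc, no entry had an FDR under 0.999 in the main limma fit. A gene whose groups do not overlap also keeps its sign when a mouse is left out. The choice of genes thus sets these counts in large part. The count of entries called against AAV-GFP mice, 2, became 1 with a pseudocount of 0.1, where Gfp had a log2 FC of −9.44 (FDR = 0.317 in limma), and 6 in the likelihood ratio test. The count of immune genes called, 0, became 1 with only the 6 libraries in the fit, 1 with a replicate block, 1 without Cre/Obese replicate 2 and 4 in the likelihood ratio test, and with a replicate left out it ranged from 0 to 1. Deviations of same-numbered mice from their group means had correlations of −0.02, 0.05 and 0.09, against −0.09 to 0.04 for the other pairs. With 3 mice a group these values do not settle whether the numbers pair the samples, and the main fit had no pairing.

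Against Cre/Obese mice the count of 128 became 70 and 214 with pseudocounts of 0.1 and 5, 15 without a variance trend, 271 with the replicate block, 398 in the likelihood ratio test, 389 in DESeq2 and 68 at an FDR of 0.05. With a replicate left out it ranged from 2 to 908, the extremes being without Cre/Obese replicates 1 and 2, and it was 3 without Cre/Obese replicate 3. It was 79, 55 and 64 without Creobese/Non-obese replicates 1, 2 and 3, and 82 without AAV-GFP replicate 1.

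Against AAV-GFP mice, quantile normalization turned Cartpt to −0.022, Map2 to −0.16, Thra to −0.047 and Peg3 to −0.088. Count models turned Nipa2 to −0.18 in all 3, and Fezf1 to −0.36 in both edgeR tests and −0.35 in DESeq2, while a pseudocount of 5 gave Fezf1 −0.16 and one of 0.1 gave Ighm −0.56. The cause was not tested. With a mouse left out, log2 FCs crossed 0 for 29 genes. They ran from −0.85 to 1.06 for Pomc, from −0.28 to 0.68 for Npy, from −0.29 to 0.45 for Cartpt, from −0.19 to 0.016 for Ntrk2 and from −0.073 to 1.07 for Nhlh2. For region and neuronal genes they ran from −2.44 to 0.63 for Nr5a1, from −1.59 to 1.22 for Fezf1, from −0.67 to 0.098 for Gad2, from −0.12 to 0.22 for Map2 and from −0.14 to 0.14 for Thra. At the Prader-Willi locus and Meg3 they ran from −0.0024 to 0.14 for Ndn, from −0.79 to 0.31 for Magel2, from −0.084 to 0.17 for Herc2, from −0.12 to 0.26 for Gabrg3, from −0.25 to 0.11 for Cyfip1, from −0.27 to 0.82 for Nipa2, from −0.15 to 0.41 for Atp10a and from −0.039 to 0.28 for Meg3. For immune genes they ran from −0.81 to 0.014 for H2-K1, from −1.24 to 0.044 for H2-Ab1, from −0.36 to 0.059 for C1qb, from −0.30 to 0.63 for Il6ra, from −0.27 to 1.67 for Igha and from −0.59 to 1.30 for Ighm. For glia, vessels and blood they ran from −1.26 to 0.20 for Gfap, from −0.20 to 0.011 for Slc1a2, from −0.21 to 0.21 for Flt1, from −0.27 to 0.13 for Rgs5 and from −0.035 to 0.57 for Hbb-bs.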
